A study of Rattus norvegicus with 80 samples.

Results

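Fibroblasts isolated from the mammary glands of IFPS rats, 1 of 3 rat lines with mutations in Nf1, were compared with fibroblasts of wildtype rats. The comparison held 6 of the 80 libraries of the series, 3 of IFPS and 3 of wildtype, chosen by the line and cell type that the labels give. IFPS, like the names of the other 2 lines, IF and PS, is not spelled out in the labels, and the allele, strain and age of the rats are not given in the sources used here. The series describes its normal cell types as flow sorted, and the labels' protocols state that fibroblasts and mammary epithelial cells (MECs) were plated in culture and lysed near confluency. The IF and PS fibroblasts, 3 libraries each, and the wildtype and IFPS MECs, 3 libraries each, served as points of reference. Nothing in the labels says that the libraries of a group came from separate animals or cultures, so the p-values measure the spread between these samples, which may be technical.

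Nf1 encodes neurofibromin, a GTPase-activating protein that returns Ras to its inactive state and so restrains the ERK cascade. Fibroblasts of the mammary stroma make the collagens and other matrix proteins around the ducts and supply growth factors to the epithelium, and they share the fat pad with adipocytes. The title of the series names collagen deposition and adipocyte differentiation in Nf1-deficient mammary glands, and the fibroblast comparison addresses which transcripts differ in the stromal cells of the IFPS line.

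The deposited counts are listed by Ensembl rat gene identifier without symbols, and no identifier could be matched to a symbol. The level of Nf1, collagens, Ras pathway genes and named cell type markers were therefore not analysed here, and the fibroblast label could not be checked against named markers. It was checked against 88 identifiers that lay at least 8-fold higher in IF and PS fibroblasts than in the MECs and adipocytes of the same lines and reached at least 10 CPM in those fibroblasts. CPM, the usual unit of abundance, are counts relative to the library total, scaled here with TMM factors. The summed levels of sets, here and below, are CPM of the library total without these factors. All 88 had counts in each of the 6 libraries, though the presence of counts alone does not separate cell types. Their level in wildtype and IFPS MECs and adipocytes was not compared. Their summed level was 82159 to 100640 CPM in wildtype and 77184 to 86803 CPM in IFPS fibroblasts, and the ranges of the lines overlapped. Total counts were 24.4e6 to 27.4e6 per wildtype library and 25.5e6 to 32.0e6 per IFPS library, with 17310 to 17428 identifiers detected in each.

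The 6 libraries did not fall into separate groups by line. On the first principal component of the 12 fibroblast libraries, which held 41.9% of the variance of log2 CPM, IFPS replicates 1, 2 and 3 stood at 42.4, 38.9 and 32.6. Wildtype replicates 1 and 2 stood at -4.14 and 9.84, and wildtype replicate 3 at 38.0, inside the range of the IFPS libraries. The IF and PS libraries all had negative values, from -39.2 to -14.4. Thus the IFPS fibroblasts stood on the opposite side of wildtype replicates 1 and 2 from both other mutated lines.

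**Figure D1:**
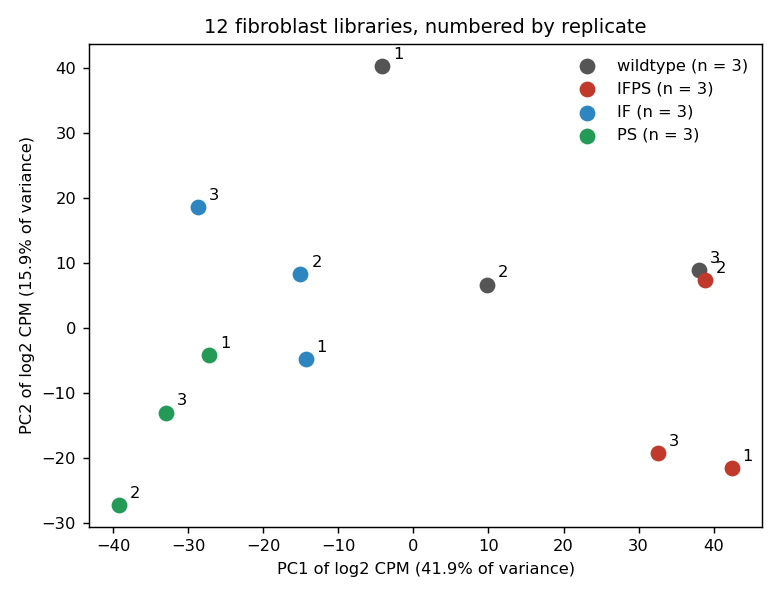
First against second principal component of log2 CPM for the 12 fibroblast libraries, coloured by line and numbered by replicate (3 per line). Wildtype replicate 3 and IFPS replicate 2 lie next to each other, while IF and PS libraries lie at negative values of the first component.

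Wildtype replicate 3 lay closer to the IFPS libraries than to its own group by the size of the differences. Its Spearman correlation over the tested identifiers was 0.995 with IFPS replicate 2, 0.992 with wildtype replicate 2 and 0.985 with wildtype replicate 1. The median absolute difference in log2 CPM between wildtype replicate 3 and IFPS replicates 1, 2 and 3 was 0.149, 0.113 and 0.157, against 0.226 and 0.162 to wildtype replicates 1 and 2. By Spearman's correlation wildtype replicate 2 came before IFPS replicates 1 and 3, at 0.991 each. These are descriptions across genes, which are not independent replicates. Wildtype replicate 3 and IFPS replicate 2 kept the labels they carry, and counts and medians are also given without them.

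Of 13879 identifiers in the edgeR quasi-likelihood fit of the 12 fibroblast libraries, 9 passed an adjusted p under 0.05 (Benjamini-Hochberg), which is 0.0648% of those tested. All 9 fell in IFPS fibroblasts and 0 rose. At an unadjusted p under 0.05 there were 2965 identifiers, of which 1484 were higher and 1481 lower in IFPS. The spread between the wildtype libraries was larger than that between IFPS libraries, with a median SD of log2 CPM of 0.161 and 0.121. Without wildtype replicate 3 the same test called 1558 of 14110 identifiers (11%), 843 higher and 715 lower. Without IFPS replicate 2 it called 238 (1.69%), of which 154 were higher. Leaving out any 1 of the other 4 libraries gave 3 to 6 calls, and all 9 identifiers remained lower in value whichever library was left out. With only the 6 libraries of these lines in the fit 0 identifiers passed, the smallest adjusted p was 0.0799 and 2116 had an unadjusted p under 0.05; DESeq2 called 871 (6.28%) over the 12 libraries and limma-voom with sample quality weights 1791 (12.9%).

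The 9 identifiers that fell were at 28.1% to 70.3% of their wildtype level in IFPS fibroblasts, a log2 fold change of -1.83 to -0.51. Their mean wildtype levels ran from 5.83 to 533 CPM, and the smallest count behind any value in the 6 libraries was 88. For all 9 the 3 IFPS libraries lay below the 3 wildtype libraries, wildtype replicate 3 included. Of all tested identifiers 2875 (20.7%) showed no overlap of the groups in either direction, 1420 (10.2%) with IFPS lower and 1455 (10.5%) with IFPS higher.

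The identifiers that fell formed 3 patterns across the mutated lines. Of the 9, 5 were also called lower than wildtype in both IF and PS fibroblasts. For 4 of these 5 IFPS was also called higher than both IF and PS, and for the other one its libraries overlapped those of PS (edgeR adjusted p = 0.504). A further 3 were called higher than wildtype in PS and were not called in IF, so that IFPS and PS differed from wildtype in opposite directions. The remaining identifier was lower in PS as well and was not called in IF. Of all identifiers 387 (2.79%) were called lower in both IF and PS, 595 (4.29%) lower in IF, 1550 (11.2%) lower in PS and 1466 (10.6%) higher in PS. Without wildtype replicate 3 the 3 identifiers higher in PS became 2, and the other counts of these patterns stayed at 5 and 1, as all 3 did without IFPS replicate 2. Set against the other lines directly, IFPS was called lower than IF for 4 of the 9 and lower than PS for 3 of the 9. Between those lines 4352 (31.4%) of all identifiers differed for IFPS minus IF, 2177 (15.7%) of them lower in IFPS, and 5617 (40.5%) for IFPS minus PS, 2791 (20.1%) of them lower. The comparisons with wildtype share the wildtype libraries, so a low or high wildtype value enters all of them.

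**Figure D2:**
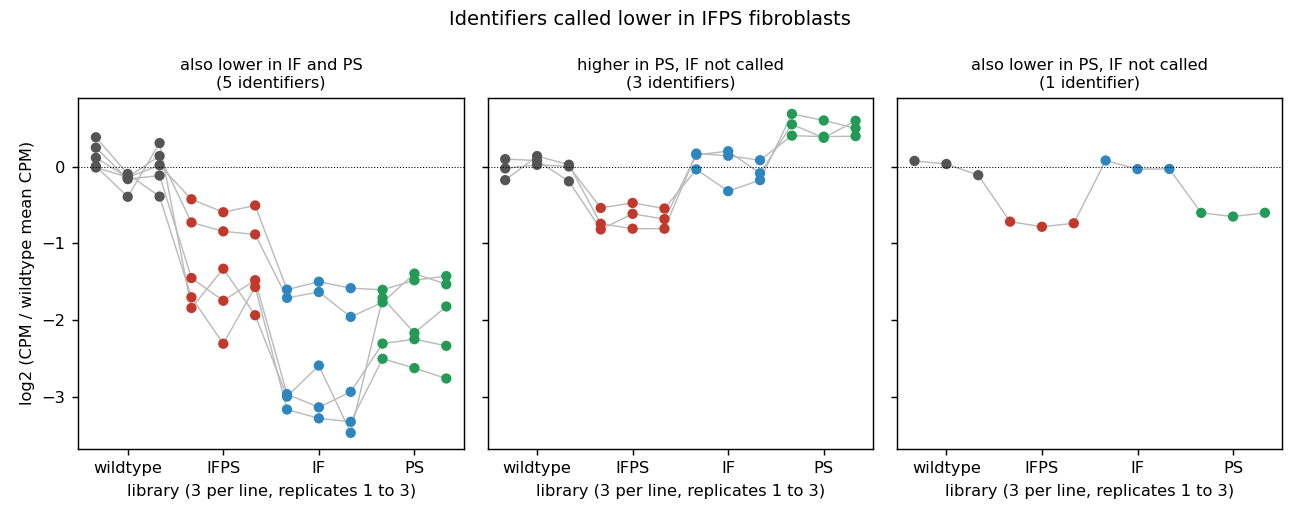
Log2 of CPM over the wildtype mean for the 9 identifiers called lower in IFPS fibroblasts, by library and line, in 3 panels by their pattern in IF and PS. Grey lines join the values of 1 identifier and carry no order of replicates; every IFPS point lies below the wildtype points of its identifier.

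ENSRNOG00000019422 had the smallest p-value and the highest level of the 9. Wildtype fibroblasts had 632, 476 and 491 CPM (533 ± 86.0, SD, n = 3), and IFPS fibroblasts had 195, 159 and 191 CPM (181 ± 19.8, n = 3). The groups were far apart, with the lowest wildtype library above the highest IFPS library. The log2 fold change was -1.55 ± 0.11 (SE), with an adjusted p of 0.000262 by edgeR with Benjamini-Hochberg adjustment, and IFPS stood at 34.0% of wildtype. It was lower still in the other lines, at 60.6 to 69.7 CPM in IF and 106 to 112 CPM in PS fibroblasts. IFPS exceeded IF by 1.45 and PS by 0.74 on the log2 scale, with edgeR adjusted p of 0.00016 and 0.00064.

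In the other isolated cells ENSRNOG00000019422 was not lower in all IFPS libraries than in wildtype. Wildtype MECs had 165, 157 and 151 CPM and IFPS MECs 150, 216 and 200 CPM, which overlap. In adipocytes the IFPS libraries had 454 to 516 CPM, above the 322 to 405 CPM of wildtype. Whole mammary pads had 97.4 to 254 CPM in IFPS and 67.3 to 120 CPM in wildtype, with overlap, and IFPS tumors had 126 to 801 CPM. Levels in adipocytes, pads and tumors are values without a test. In pads and tumors fewer cells of a type and less RNA per cell cannot be told apart.

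ENSRNOG00000013780 was the 1 identifier lower in IFPS and PS but not in IF fibroblasts. Wildtype fibroblasts had 126, 123 and 111 CPM (120 ± 7.99, SD, n = 3), and IFPS fibroblasts 72.9, 69.6 and 71.8 CPM (71.5 ± 1.68, n = 3). The 3 IFPS libraries sat close together and well below each wildtype library. The log2 fold change was -0.75 ± 0.06 (SE), 59.6% of wildtype, with an edgeR adjusted p of 0.000262 after Benjamini-Hochberg adjustment. IF fibroblasts had 127, 117 and 117 CPM, in the range of wildtype, and PS fibroblasts 78.9, 76.3 and 79.0 CPM. IFPS lay below IF by 0.75 on the log2 scale (edgeR adjusted p = 0.00016), and its difference from PS was -0.13 ± 0.06 (edgeR adjusted p = 0.0942).

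Unlike ENSRNOG00000019422, ENSRNOG00000013780 was lower in IFPS outside fibroblasts too. MECs had 139, 140 and 127 CPM in wildtype and 97.4, 88.3 and 91.1 CPM in IFPS, without overlap. The log2 fold change there was -0.56 ± 0.06, with an edgeR adjusted p of 0.000232. IFPS adipocytes had 70.9 to 72.2 CPM against 104 to 110 CPM in wildtype, and IFPS pads 74.3 to 84.1 CPM against 89.1 to 130 CPM, again with no overlap. IFPS tumors spread more widely, from 42.4 to 140 CPM. Both identifiers passed the threshold in each of the 6 fits that left out 1 library, and both had an edgeR adjusted p of 0.0799 when only the 6 libraries were fitted.

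No identifier passed the threshold as higher in IFPS fibroblasts in the edgeR fit of all 12 libraries with the low-count filter. Without the filter 10 higher identifiers passed, and 493 did so with DESeq2 and 1000 with limma-voom and sample quality weights. The 2 of smallest p among the higher ones without overlap are given as values. ENSRNOG00000000034 had 19.2, 26.0 and 28.1 CPM in wildtype and 57.9, 41.3 and 46.8 CPM in IFPS, a log2 fold change of 0.99 ± 0.16 (SE) with an edgeR adjusted p of 0.0795. IF and PS fibroblasts, at 22.3 to 30.3 and 19.6 to 22.8 CPM, lay near wildtype, so the IFPS line stood alone in value. ENSRNOG00000060356 had 11.1, 13.1 and 15.2 CPM in wildtype and 22.5, 22.5 and 20.6 CPM in IFPS, a log2 fold change of 0.73 ± 0.13 (SE) with an edgeR adjusted p of 0.0795. Here IF (7.06 to 9.26 CPM) and PS (6.56 to 7.89 CPM) lay below wildtype, and wildtype MECs had more than any fibroblast library, at 31.9 to 38.4 CPM. For both, wildtype replicate 3 was the wildtype library nearest to IFPS. Without it the edgeR adjusted p was 0.00707 for ENSRNOG00000000034 and 0.0061 for ENSRNOG00000060356. Both also passed without IFPS replicate 2 (edgeR adjusted p = 0.0292 and 0.0478), without the filter (0.023 and 0.0406), with DESeq2 (1.24e-05 and 9.20e-05) and with limma-voom (0.00576 for each). Neither passed with RLE size factors (edgeR adjusted p = 0.0782 for each) or with only the 6 libraries (0.275 for each). Neither passed without wildtype replicate 1 or 2 or without IFPS replicate 1 or 3 (edgeR adjusted p = 0.144 to 0.313).

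**Figure D3:**
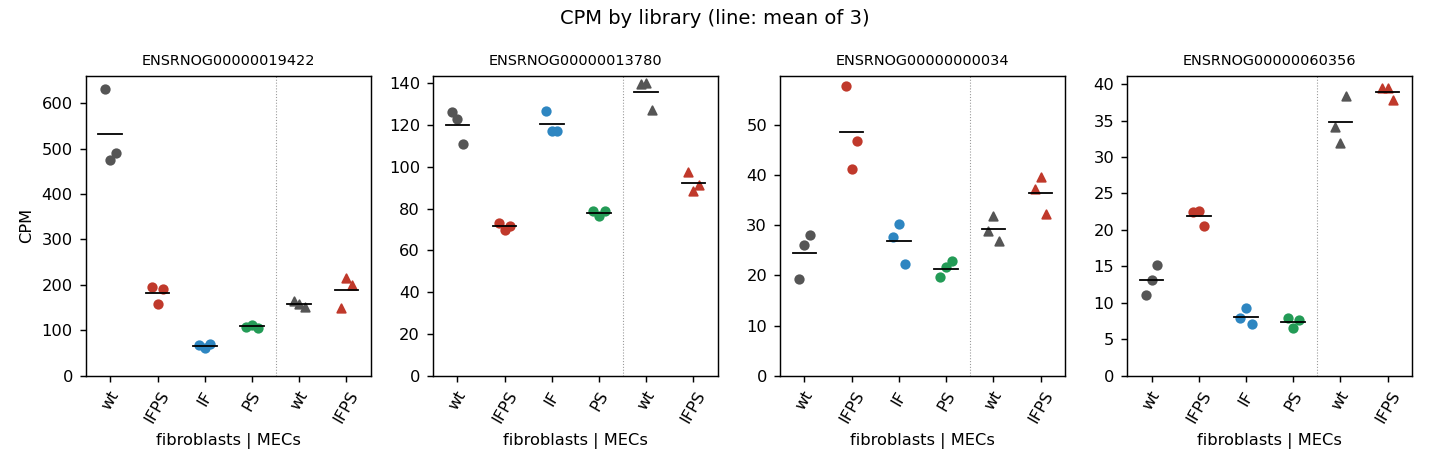
CPM by library for the 4 printed identifiers in fibroblasts of 4 lines (circles) and in wildtype and IFPS MECs (triangles); lines mark the mean of 3, and the scale factors were computed separately for the fibroblast fit and the joint fit with MECs. The IFPS fibroblasts lie below all wildtype fibroblasts for the first 2 identifiers and above them for the others.

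Most identifiers with a large fold did not pass the test. At a fold of 2 or more, 271 identifiers were higher and 226 lower in IFPS, of which 156 and 103 showed no overlap of the groups and 0 and 3 passed the edgeR threshold. At a fold of 4 or more there were 17 higher and 29 lower, and 0 of the 17 and 12 of the 29 had a mean of at least 1 CPM over the 6 libraries. Without wildtype replicate 3, 516 were higher and 419 lower by 2-fold or more, with 183 and 119 called, and 56 and 72 by 4-fold or more. Without IFPS replicate 2, 454 and 367 differed by 2-fold or more, with 103 and 18 called, and 52 and 67 by 4-fold or more. The median log2 fold change over all tested identifiers was -0.00.

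For the 1558 identifiers called without wildtype replicate 3, the position of that library between its group and IFPS was read on a scale where 0 is the mean of wildtype replicates 1 and 2 and 1 is the IFPS mean. Its median position was 0.716, with quartiles of 0.565 and 0.900, over the 1549 that were also tested with all libraries. It lay nearer to the IFPS mean for 1260 of them (81.3%) and beyond that mean for 226. These identifiers were chosen for a distance between the other libraries, so the positions are a description. The 238 called without IFPS replicate 2 gave a like picture in the other direction, with that library nearer to wildtype for 156 of the 232 tested with all libraries (67.2%).

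**Figure D4:**
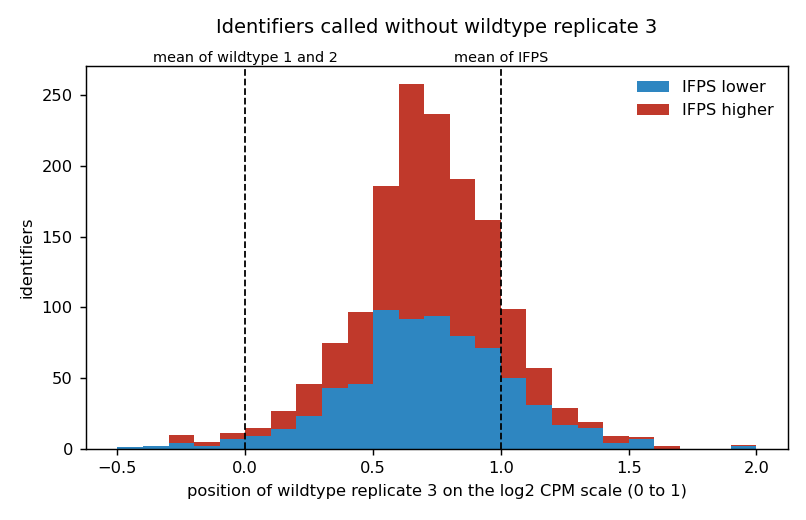
Number of identifiers by the position of wildtype replicate 3, from 0 at the mean of the other wildtype libraries to 1 at the IFPS mean, among those called without that library (positions beyond the ends of the axis are drawn in the outermost bars). Most identifiers lie nearer to the IFPS mean, in both directions of change.

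Identifiers typical of epithelial cells were higher in IFPS than in wildtype fibroblasts. A set of 271 MEC-enriched identifiers was defined in IF and PS libraries alone, at least 8-fold higher in MECs than in fibroblasts and adipocytes and at least 10 CPM in MECs. Their summed level was 567, 837 and 835 CPM in wildtype fibroblasts (746 ± 155, SD, n = 3) and 1959, 984 and 1923 CPM in IFPS fibroblasts (1622 ± 553, n = 3). All 3 IFPS libraries exceeded all wildtype libraries, and IFPS replicate 2 came closest to wildtype. IF fibroblasts had 710 to 884 CPM and PS fibroblasts 450 to 799 CPM, below every IFPS library. The set was chosen for low levels in IF and PS fibroblasts, so its definition favours these low values and they are no comparison for IFPS. Wildtype MECs had 25707 to 31393 CPM, so the IFPS mean was 5.87% and the wildtype mean 2.70% of the level in MECs. Of the 271, between 10 and 11 had no count in an IFPS fibroblast library and between 9 and 20 in a wildtype one.

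Among the MEC-enriched identifiers 228 were tested, and their median log2 fold change was 0.97, beside -0.00 over all identifiers. The groups did not overlap for 89 higher (39.0%) and 2 lower (0.877%), beside 10.5% and 10.2% over all identifiers, and 0 passed the adjusted threshold in the edgeR fit, while 130 higher and 4 lower had an unadjusted p under 0.05. Without wildtype replicate 3, 32 of 236 were called higher and 0 lower, and the median was 1.06. Over all 14110 identifiers 843 were called higher and 715 lower there. Without IFPS replicate 2, 53 of 235 were called, beside 238 of 14076, and the median was 1.28. DESeq2 called 54 of these identifiers, beside 871 in all, and limma-voom with sample quality weights 72, beside 1791 in all. Leaving out that IFPS library moved the higher identifiers without overlap from 89 to 190 (80.9%, beside 19.4% over all identifiers), and leaving out wildtype replicate 3 moved them to 115 (48.7%, beside 22.9%). The set was defined after the data were seen, and no test was made over it.

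The other sets had smaller median changes. The median log2 fold change was -0.24 for the 88 fibroblast-enriched identifiers, with 4 of 88 higher and 15 of 88 lower without overlap, beside 10.5% and 10.2% over all identifiers. It was -0.12 for 307 tested of 428 adipocyte-enriched identifiers, with 15 higher (4.89%) and 30 lower (9.77%, near the share over all identifiers), and 2 of these 30 were among the 9 that fell. Their summed level overlapped between wildtype (6412 to 8717 CPM) and IFPS (5999 to 6865 CPM). Pad-only identifiers were at least 8-fold higher in IF and PS whole pads than in each isolated cell type, with at least 10 CPM in pads. These 99, with 45 tested, summed to 46.7 to 86.5 CPM in wildtype and 43.6 to 55.7 CPM in IFPS, with a median of -0.22. They were not absent from fibroblasts. Between 26 and 30 of the 99 had no count in an IFPS fibroblast library and between 30 and 32 in a wildtype one. Without wildtype replicate 3 the medians of the fibroblast-enriched, adipocyte-enriched and pad-only identifiers were -0.30, -0.18 and -0.49, with 35 (39.8%), 72 (22.5%) and 10 (19.6%) lower without overlap beside 21.6% over all identifiers. In that fit 2 of 88, 3 of 320 and 0 of 51 were called higher, and 14, 12 and 1 lower. Over all 14110 identifiers 843 were called higher and 715 lower. Without wildtype replicate 1 the adipocyte-enriched and pad-only medians were above 0, at 0.02 and 0.24. Without IFPS replicate 2 they were -0.28, -0.16 and -0.13, with 32 (36.4%), 66 (20.8%) and 6 (11.8%) lower beside 19.5%.

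The difference between IFPS and wildtype fibroblasts went with the level of an identifier in MECs relative to fibroblasts, as measured in IF and PS libraries. IF and PS fibroblasts stood apart from IFPS on the first principal component, and an identifier low in them gets a high relative level. How far the order below comes from this fibroblast term was not tested. The median log2 fold change was -0.34 for 338 identifiers at least 8-fold higher in fibroblasts and -0.18 for 1765 at 2- to 8-fold. It was -0.00 for 9973 within 2-fold, 0.25 for 1344 at 2- to 8-fold higher in MECs and 0.74 for 459 at least 8-fold higher there. Without wildtype replicate 3 the outer medians were -0.52 and 0.81, and without IFPS replicate 2 they were -0.35 and 0.96, with the same order of the 5 groups. Across 13879 identifiers Pearson's r was 0.438 and Spearman's rho 0.431, given as a description because genes share the same libraries. The 10 higher identifiers of smallest p, taken from those without overlap and of at least 1 CPM, all had a higher level in MECs than in fibroblasts. Of these 10, 7 were at least 2-fold higher in MECs, beside the 1344 and 459 of all 13879 identifiers given above. The share of all identifiers with any higher level in MECs was not counted. Of the 9 that fell, 7 also had a higher level in MECs, 4 of them at least 2-fold, and 0 were MEC-enriched. These levels were compared in IF and PS libraries, and 5 of the 9 were called lower in both IF and PS than in wildtype fibroblasts. In wildtype, ENSRNOG00000019422 had the reverse order, with 476 to 632 CPM in fibroblasts and 151 to 165 CPM in MECs. For the 4 at least 2-fold higher in MECs, wildtype fibroblasts had 36.3 to 62.1, 42.1 to 51.0, 73.3 to 119 and 87.4 to 104 CPM. Wildtype MECs had, in the same order, 32.6 to 49.8, 53.5 to 71.6, 75.2 to 134 and 71.2 to 89.1 CPM. The ranges overlapped except for 42.1 to 51.0 against 53.5 to 71.6 CPM, so the 2-fold margin was not seen in wildtype. The scale factors of fibroblast and MEC values came from separate fits. The order in wildtype was not counted for the rest. The part of MEC-enriched RNA in any of these differences was not tested.

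**Figure D5:**
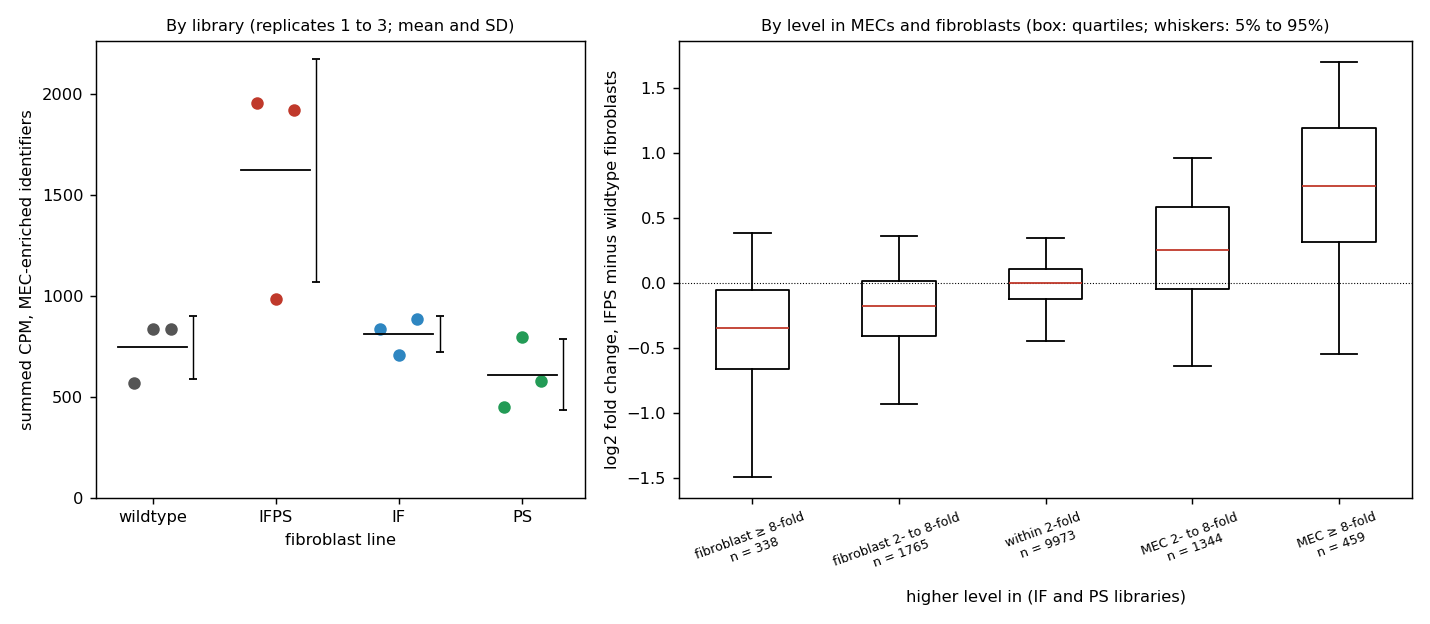
Left, summed CPM of 271 MEC-enriched identifiers in each fibroblast library, with mean and SD of 3 per line. Right, log2 fold change of IFPS minus wildtype fibroblasts for identifiers grouped by their level in MECs relative to fibroblasts; the medians go from -0.34 to 0.74 from left to right.

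Whether the IFPS difference was the same in fibroblasts and in MECs was tested as an interaction over 24 libraries of the 2 cell types. That edgeR fit took no account of the pairing of fibroblasts with MECs by title number. In it 36 of 15224 identifiers (0.236%) passed the threshold. Of these, 28 (0.184%) were negative, meaning a lower IFPS effect in fibroblasts, and 8 were positive. The 28 had a median log2 fold change of -0.48 in fibroblasts and 0.58 in MECs, with opposite signs in all 28. They were chosen by the difference between these changes, which favours opposite signs. The change in fibroblasts was the larger one for 9 of the 28. The 8, chosen likewise, had medians of 1.75 and -0.14, and the change in fibroblasts was the larger one for 7 of them. Of the 8, 3 were MEC-enriched, beside at most 271 of all 15224 tested. With the title number as a replicate block the count was 325 (2.13%). Of these, 218 were positive and 107 (0.703%) negative, so most were positive, unlike in the fit without the block. Without wildtype fibroblast replicate 3, and without the block, the count was 1241. Without IFPS fibroblast replicate 2 it was 290, and leaving out any 1 of the other 10 libraries gave 15 to 26. In the same fit 93 identifiers (0.611%) differed between IFPS and wildtype MECs, 69 higher and 24 lower.

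Of the 9 identifiers that fell in IFPS fibroblasts, 3 were among the 28 negative ones. With the replicate block 5 were among the 107 negative ones, the other two with edgeR adjusted p of 0.0351 and 0.0484, and without wildtype fibroblast replicate 3 or with DESeq2 5 of the 9 passed as well. ENSRNOG00000019422 had an interaction of -1.81 ± 0.17 on the log2 scale, and its log2 fold change in MECs was 0.26, with an edgeR adjusted p of 0.473. It passed the threshold in each of the 12 fits that left out 1 library and with the replicate block. For ENSRNOG00000013780 the interaction was -0.19 ± 0.09 with an edgeR adjusted p of 0.286, so a difference between the cell types was not shown for it. Of the 9, 5 had a negative log2 fold change in MECs and 1 was called lower there.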

How the data were processed

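RNA was sequenced as poly(A) libraries, and the deposited table holds raw counts per gene made by the authors, used as deposited, for 32883 Ensembl identifiers in 80 columns. Per the submitters' processing notes, Trim Galore, STAR 2.5.2b and the build Rnor_6.0 were used. The counting tool, annotation and strand setting are not given in the sources used here, so overlapping, antisense or near-identical genes are uncertain. Of the identifiers 0 matched the reference table of 47357 genes, so symbol-based lists and Nf1 are not analysed here.

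The 12 fibroblast libraries were fitted with edgeR 4.0.16 in R 4.3.3 (quasi-likelihood test, TMM, filterByExpr, Benjamini-Hochberg over all identifiers tested, adjusted p under 0.05), and the interaction with MECs over 24 libraries likewise. DESeq2 1.42.0 and limma 3.58.1 served as alternatives. Log2 CPM used a prior count of 2. A standard error is the fold change divided by the root of the F statistic. The fits were tested on simulated counts in which replicates of a group differed only by random spread. A library that departs from its group, like wildtype replicate 3, was not simulated. Library pairs of a group differed beyond sampling noise (chi-square per degree of freedom 10.7 to 76.5).

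Printed identifiers are the 2 lower called ones and the 2 higher ones without overlap, of at least 1 CPM, that had the smallest p. Members, lists and sets were chosen with earlier results of these data known. Title numbers paired fibroblasts with MECs: deviations from the group means correlated at 0.111 to 0.243 in all 12 same-numbered pairs and at -0.162 to -0.0078 in 24 others, over 15224 identifiers. Deviations within a group cancel out, so positive values in same-numbered pairs bring negative values on average in the others. Alternatives were RLE size factors, no filter, only 6 libraries, the replicate block and leaving out each library; a 4-fold set threshold, and folds, line patterns and sets without wildtype replicate 3 or IFPS replicate 2, were added after seeing the data.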

Additional observations from a re-analysis of the deposited data

Results flagged for a closer look

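The IFPS effect differed between fibroblasts and MECs for 36 identifiers by edgeR's interaction test with Benjamini-Hochberg adjustment, and for 325 with the replicate block. Among the 9 identifiers that fell in IFPS fibroblasts this held for 3, and for 5 with the replicate block, with DESeq2 or without wildtype fibroblast replicate 3. ENSRNOG00000019422 had a difference of -1.81 on the log2 scale between its effect in fibroblasts and that in MECs. The other two of the 3 had differences of -1.96 and -1.13, with log2 fold changes in MECs of 0.14 and 0.32 beside -1.83 and -0.82 in fibroblasts.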

How the results depend on the processing

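The count of 9 identifiers was 9 with RLE size factors, 31 without the low-count filter (10 higher), 871 with DESeq2, 1791 with limma-voom and sample quality weights, and 0 with only 6 libraries. Leaving out 1 library gave 3 to 1558, the highest without wildtype replicate 3. All 9 kept their direction in all 11 alternatives. They remained called with RLE, no filter, DESeq2, limma-voom, and without wildtype replicate 3 or IFPS replicate 2. The share of higher calls was 0% of the 9, 32.3% without the filter, 54.1% without wildtype replicate 3, 64.7% without IFPS replicate 2, 56.6% with DESeq2 and 55.8% with limma-voom; the cause was not tested. The count of 36 for the difference between fibroblasts and MECs was 39 with RLE, 24 without the filter, 529 with DESeq2, 325 with the replicate block and 15 to 1241 when 1 library was left out. For IFPS against wildtype fibroblasts alone no block could be fitted, since the lines share no title numbers. The MEC-enriched median lay between 0.79 and 1.28 in its 12 alternatives, whereas the adipocyte-enriched (-0.19 to 0.02) and pad-only (-0.49 to 0.24) medians crossed 0, without wildtype replicate 1. Alternatives for symbol-based lists were not run, because no symbols matched. By abundance, 17.1% of the 4627 least abundant identifiers and 24.0% of the 4626 most abundant had an unadjusted edgeR p under 0.05. With 3 libraries a group an exact permutation test of a single value cannot go below p = 0.1.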
